A study of Mus musculus with 8 samples.

Results

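RNA of intestinal crypts from a mouse labelled as a knockout of Setdb1 in intestinal epithelium, in the library here called VEMD4, was set against RNA of crypts from a control mouse, in the library called WT, and these are 2 of the 8 samples of the series. Every gene of the deposited crypt table with a mean of at least 1 FPKM (fragments scaled to gene length and to the size of the library) over the 6 crypt libraries was taken, which gave 10862 of the 16958 genes with values. These are called tested below, although no statistical test was possible. The size of a difference is the log2 of the ratio of VEMD4 to WT after 1 FPKM was added to both values, and "higher" or "lower" below without another figure means at least 2-fold by this ratio. Where 2 values are joined by "against", the first is the FPKM in VEMD4 and the second that in WT.

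The VEMD4 mouse was a C57BL/6 animal of 8 weeks with the genotype setdb1 iIEC-KO, and the WT mouse a C57BL/6 animal of 8 weeks with the genotype setdb1fl/fl, which carries floxed alleles as the control. Per the labels' protocols, deletion used Villin-CreERT2, a recombinase made in intestinal epithelium and switched on by tamoxifen, and which is not made in stroma or leukocytes. Tamoxifen was given once by gavage at 800 mg/kg, to WT littermates as well, so both libraries share that dose. The time from dose to collection was not compared. Crypts are the pits of the gut wall that hold stem cells, Paneth cells and dividing progenitors. They were frozen and lysed in Trizol, and the RNA was sequenced on a BGI-500. The letters VEMD are not spelled out, and although the title of the table speaks of days, the digit is used here only as a name. The other crypt libraries, VEMD2, VEMD3, VEMD6 and VEMD8, carry the same knockout label and serve as a frame for the VEMD4 values.

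Each group is 1 library, so neither a test nor an error can be given, and every difference describes 1 library set against another. The table holds FPKM and no counts, so the depth behind a value is unknown. In bulk RNA, fewer cells of a type and less RNA per cell cannot be told apart. FPKM summed to 585501 in WT and 511006 in VEMD4. Scaling both libraries to the same sum moved the median log2 ratio from 0.03 to 0.21 and the share of higher genes among those past 2-fold from 58.5% to 71.7%, so small ratios depend on the scaling. Pan-epithelial genes were abundant in both libraries. Epcam was at 904 FPKM in VEMD4 against 1080.2 in WT, Cdh1 at 319.8 against 222 and the brush border protein gene Vil1 at 489.6 against 575, chosen after their values were seen.

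SETDB1 is a histone methyltransferase that places repressive methyl groups on histone H3, mostly over endogenous retroviruses, where zinc finger proteins and TRIM28 bring it. When such repeats are transcribed, double-stranded RNA can be read by cytosolic sensors, which signal through interferon regulatory factors. Interferons then act through receptors, JAK kinases and STAT proteins on genes whose promoters often hold the interferon-stimulated response element. The gut epithelium answers damage in another known way, by switching crypts to a fetal-like program marked by Ly6a and Clu and fed by YAP and EGF receptor signals.

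Of the 10862 tested genes, 772 were higher in VEMD4 (7.11%) and 547 were lower (5.04%). The ratio lay within 1.5-fold for 7811 genes, and its median was 0.03. At 4-fold the counts were 204 and 115, and at 16-fold 25 and 11. Of the higher genes, 193 were under 1 FPKM in WT and 16 of these were listed at 0. Genes this low in WT passed the filter only through knockout libraries, so some knockout library had to lie above WT, though not always VEMD4. At such genes the filter thus favours the higher side. Among genes with a mean of 100 FPKM or more the balance was the other way, with 4.09% higher and 8.07% lower. Osbpl3 at 8.02 FPKM in VEMD4 against 3.51 in WT and Abtb1 at 3.66 against 8.32 stood just past the threshold. Spindoc at 11.01 against 5.01 and Cyb5a at 125 against 251 stood just short of it. Counts for the gene lists below are to be read beside the shares of 7.11% higher and 5.04% lower. These lists were written with earlier results of these data known, so their counts can reflect the choice of members.

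**Figure D1:**
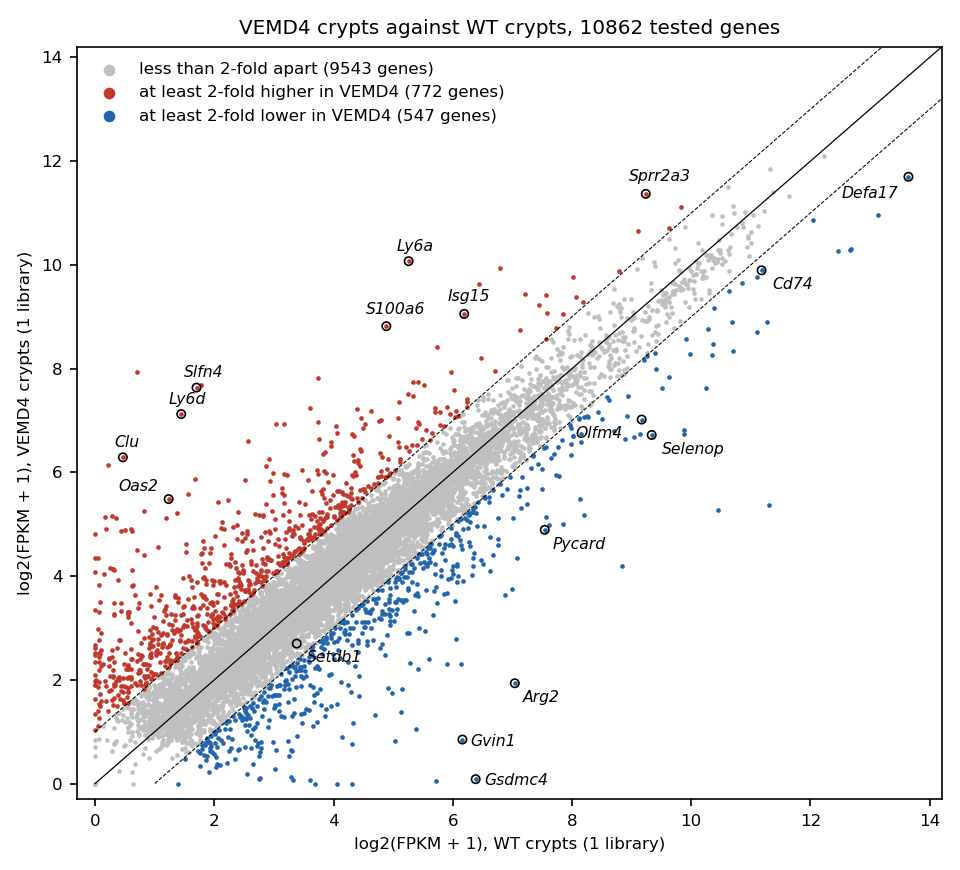
Each point is a tested gene, with log2(FPKM + 1) in the WT library on the x axis and in the VEMD4 library on the y axis. Dashed lines mark 2-fold, with 772 genes at or above the upper line in red and 547 at or below the lower line in blue, and the named genes are circled.

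Setdb1 (gene 84505, chr3:95323525-95357202 on GRCm38) was at 5.49 FPKM in VEMD4 and 9.42 in WT, with 6.64, 7.03, 3.53 and 4.95 in VEMD2, VEMD3, VEMD6 and VEMD8. All 5 knockout libraries were thus below WT, and the log2 ratio of VEMD4, -0.68, was short of 2-fold. Because reads were summed over the gene, a loss confined to some exons would not be visible. Of 24 tested genes for partners of SETDB1 and for other enzymes and readers of histone H3 lysine methylation, 3 were higher and none lower. Over all tested genes the shares were 7.11% and 5.04%. Resf1, which binds SETDB1 and helps it silence retroviruses in embryonic stem cells, was at 119 FPKM in VEMD4 and 15.5 in WT, with 48.1, 82.0, 69.3 and 70.5 in VEMD2, VEMD3, VEMD6 and VEMD8. Its VEMD4 value was the top of the 6. Atf7ip, the stabilising partner of SETDB1, was at 21.1 FPKM in VEMD4 against 9.06 in WT, and Zfp809, which recognises a retroviral primer binding site, at 34.3 against 13.7. The corepressor gene Trim28 was level, at 59.4 against 59.2.

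Antiviral genes were higher as a group, from sensors to effectors, while interferon ligand genes were hardly seen. Of 10 listed, 5 had values and none passed the filter, and Ifng at 0.2 FPKM and Ifnk at 0.07 were the ones above 0 in VEMD4. Receptor and signalling genes stayed near WT for the most part. Of 16 tested, 2 were higher and none lower, with a median of 0.20, beside 7.11% higher and 5.04% lower of all tested genes. Usp18, the protease that strips ISG15 from proteins and damps the type I receptor, was at 102 FPKM in VEMD4 and 19.19 in WT, with 14.9, 24.4, 44.7 and 28.1 in VEMD2, VEMD3, VEMD6 and VEMD8. Stat2, a transducer of the type I receptor, was at 44.3 FPKM in VEMD4 against 18.7 in WT. VEMD4 held the top value of both genes. Irf9, which binds DNA together with STAT2, had a log2 ratio of 0.94.

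Adaptors, kinases and factors that induce interferon differed by member, with 3 of 15 higher and 1 lower. Irf7, the factor that amplifies interferon production, was at 213 FPKM in VEMD4 and 41.8 in WT, with 39.1, 73.1, 79.4 and 64.6 in VEMD2, VEMD3, VEMD6 and VEMD8. VEMD4 was more than 2-fold above each of the others. Sting1, the adaptor of cytosolic DNA sensing, was at 14.04 FPKM in VEMD4 against 2.99 in WT, and Irf5 at 3.23 against 0.83. Irf8, a factor of myeloid and epithelial cells, went the other way, at 59.2 against 124 FPKM. Among 11 tested sensors of viral nucleic acid, 7 were higher, none lower, and 9 had their top value in VEMD4. Ddx60, a helper of RIG-I, was at 61.5 FPKM in VEMD4 and 12.4 in WT, with 9.13, 15.8, 16.8 and 34.0 in VEMD2, VEMD3, VEMD6 and VEMD8. Dhx58, the regulator LGP2, was at 33.5 FPKM in VEMD4 against 7.09 in WT, Ddx58, which encodes RIG-I itself, at 30.6 against 10.1, and Trim25, the ligase that activates RIG-I, at 77.9 against 27.0. Eif2ak2, the kinase PKR, was at 49.9 against 20.9 FPKM and the DNA sensor gene Aim2 at 7.37 against 3.14. Of 11 tested genes for RNA editing, RNA decay and DNA trimming, 4 were higher and none lower, with a median of 0.75. The RNA editor gene Adar was at 36.7 FPKM in VEMD4 against 16.6 in WT, Trex1, a DNA exonuclease, at 21.9 against 9.93, Zc3hav1, which marks foreign RNA for decay, at 44.1 against 19.9, and Isg20, an RNA exonuclease, at 9.72 against 0.92. The subunit genes of RNase H2, which cuts RNA paired with DNA, were below WT but short of 2-fold, with ratios of -0.57, -0.73 and -0.76.

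Of 46 listed antiviral effectors 44 were tested, 35 of them higher and 1 lower, with a median log2 ratio of 1.92, and 39 had their top value of the 6 libraries in VEMD4. The counts were the same among genes of at least 1 FPKM in WT. Against the same WT library, and so sharing that control, the median was 0.15 for VEMD2, 0.67 for VEMD3, 0.36 for VEMD6 and 0.49 for VEMD8. Isg15, a ubiquitin-like protein that is joined to others, was at 531 FPKM in VEMD4 and 72.0 in WT, with 61.3, 163, 146 and 138 in VEMD2, VEMD3, VEMD6 and VEMD8. Among effectors more than 2-fold above each of the other 5 libraries, it had the top level. Rsad2, viperin, which makes a chain-ending nucleotide, was at 75.5 FPKM in VEMD4 and 6.54 in WT, with 4.73, 10.5, 24.9 and 24.9 in VEMD2, VEMD3, VEMD6 and VEMD8. Its neighbour Cmpk2, a nucleotide kinase transcribed next to it, was at 55.6 FPKM in VEMD4 and 14.1 in WT, with 13.96, 20.2, 21.2 and 23.1 in VEMD2, VEMD3, VEMD6 and VEMD8.

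The Ifit genes, whose proteins bind viral RNA ends, lie together on chromosome 19 and were higher as a block. From Lipa, a lysosomal lipase gene, to Ifit1, at chr19:34492316-34662981, 7 consecutive tested genes were all higher. Ifit1 was at 79.6 FPKM in VEMD4 and 18.97 in WT, with 12.5, 18.9, 30.7 and 32.4 in VEMD2, VEMD3, VEMD6 and VEMD8. Ifit3 was at 42.3 FPKM in VEMD4 and 3.19 in WT, with 5.53, 11.8, 4.72 and 5.08 in VEMD2, VEMD3, VEMD6 and VEMD8. Ifit2 was at 35.0 FPKM in VEMD4 and 7.85 in WT, with 8.06, 9.4, 6.37 and 4.62 in VEMD2, VEMD3, VEMD6 and VEMD8. These 3 genes were near the WT level in VEMD2 and stood out in VEMD4. Ifit1bl1, a near copy, was at 342 FPKM in VEMD4 against 52.2 in WT, Ifit3b at 12.8 against 1.02 and Ifit1bl2 had a ratio of 1.08. Because the family members resemble each other, their single values are uncertain.

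The OAS genes make the second messenger that activates RNase L. Oas2, with the highest ratio of the effectors, was at 43.8 FPKM in VEMD4 and 1.35 in WT, with 4.79, 13.8, 2.06 and 8.6 in VEMD2, VEMD3, VEMD6 and VEMD8. Oas1b, Oas1f, Oas1g and Oas1a were a run of neighbours with ratios from 1.54 to 2.11, and Oasl1 and Oasl2 were at 212 against 39.3 and 206 against 45.03 FPKM. The OAS1 copies are also uncertain singly. Oas3 was at 49.9 FPKM in VEMD4 and 13.1 in WT, with 14.3, 23.8, 19.4 and 16.8 in VEMD2, VEMD3, VEMD6 and VEMD8, a value more than 2-fold above each other library. The Schlafen genes on chromosome 11, growth and antiviral regulators, were a run of 5, Slfn5, Slfn9, Slfn8, Slfn2 and Slfn4. Slfn4, a member of myeloid cells and of inflamed epithelium, was at 198 FPKM in VEMD4 and 2.25 in WT, with 7.65, 13.4, 9.48 and 27.8 in VEMD2, VEMD3, VEMD6 and VEMD8. No other tested gene in VEMD4 stood so far above all other libraries. Of the restriction factors, Bst2, tetherin, was at 163 FPKM in VEMD4 against 33.2 in WT, Ifitm3, which blocks viral entry, at 661 against 266, Mx1 at 36.4 against 1.58 and Mx2 at 16.7 against 2.58. Bst2 and Ifitm3 were as high or nearly so in VEMD3, at 153 and 698 FPKM.

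The 1 lower effector, Trim30d, lies in a cluster of Trim genes on chromosome 7, as does Trim12a, which is not in the list. Trim34b, Trim12c and Trim30a, neighbours at chr7:104329471-104465193, were higher, with Trim30a at 28.3 FPKM in VEMD4 and 4.85 in WT, with 4.81, 7.99, 4.05 and 5.82 in VEMD2, VEMD3, VEMD6 and VEMD8. Trim30d was at 1.25 FPKM in VEMD4 and 10.0 in WT, with 5.31, 4.37, 22.6 and 9.14 in VEMD2, VEMD3, VEMD6 and VEMD8. Trim12a was at 0.05 FPKM in VEMD4 and 11.2 in WT, with 6.25, 7.39, 26.4 and 8.6 in VEMD2, VEMD3, VEMD6 and VEMD8. Both were lower in VEMD4 than in each other library. Genes of this cluster resemble each other, so their single values are uncertain.

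Promoters of the effectors were searched for the interferon-stimulated response element. The list was written as interferon effectors, so its share of matches reflects that choice and does not bear on the VEMD4 difference. The letters were GAAANNGAAA, on either strand, in the 300 bases from 250 before to 50 after each start in RefSeq (GRCm38.p6). A match was found for 17 of the 35 tested effectors with a promoter in that table (48.6%). Over all 27025 genes with a promoter the share was 3.99%, over the tested genes 3.92%, over those higher in VEMD4 9.11% and over those lower 5.48%. The 200 bases before the start are shown for 4 of the effectors given above, with matches in capitals. Isg15 is at chr4:156200819-156201018, minus strand, Ifit1 at chr19:34640689-34640888, plus strand, Ifit3 at chr19:34583329-34583528, plus strand and Rsad2 at chr12:26456453-26456652, minus strand, and each is read 5′ to 3′ toward its gene.
Isg15: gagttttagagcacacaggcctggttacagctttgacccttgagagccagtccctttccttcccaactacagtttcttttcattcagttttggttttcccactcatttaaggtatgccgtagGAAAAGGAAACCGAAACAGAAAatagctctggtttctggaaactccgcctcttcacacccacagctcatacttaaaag
Ifit1: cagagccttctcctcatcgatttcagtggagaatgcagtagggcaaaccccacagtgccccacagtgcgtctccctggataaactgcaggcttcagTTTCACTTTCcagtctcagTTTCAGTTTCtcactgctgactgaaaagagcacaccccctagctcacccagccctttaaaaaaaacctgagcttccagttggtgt
Ifit3: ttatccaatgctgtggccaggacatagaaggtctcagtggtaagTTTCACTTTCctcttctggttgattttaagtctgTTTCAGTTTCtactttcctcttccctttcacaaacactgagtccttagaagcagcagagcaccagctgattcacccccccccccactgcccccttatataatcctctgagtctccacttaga
Rsad2: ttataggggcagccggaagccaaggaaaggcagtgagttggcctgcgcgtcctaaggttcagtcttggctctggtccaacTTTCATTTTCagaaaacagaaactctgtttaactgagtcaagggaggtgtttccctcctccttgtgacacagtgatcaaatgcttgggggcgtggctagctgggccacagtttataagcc
Isg15 held 3 overlapping matches, Ifit1 and Ifit3 held 2 separate ones each, and Rsad2 held 1. Matches did not follow the ratio gene by gene. Trim30d, at a ratio of -2.29, and Ifitm2, at -0.17, held a match, while the higher genes Oasl1, Oasl2 and Ifit2 held none. A match describes these letters and is not a shown site of binding.

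**Figure D2:**
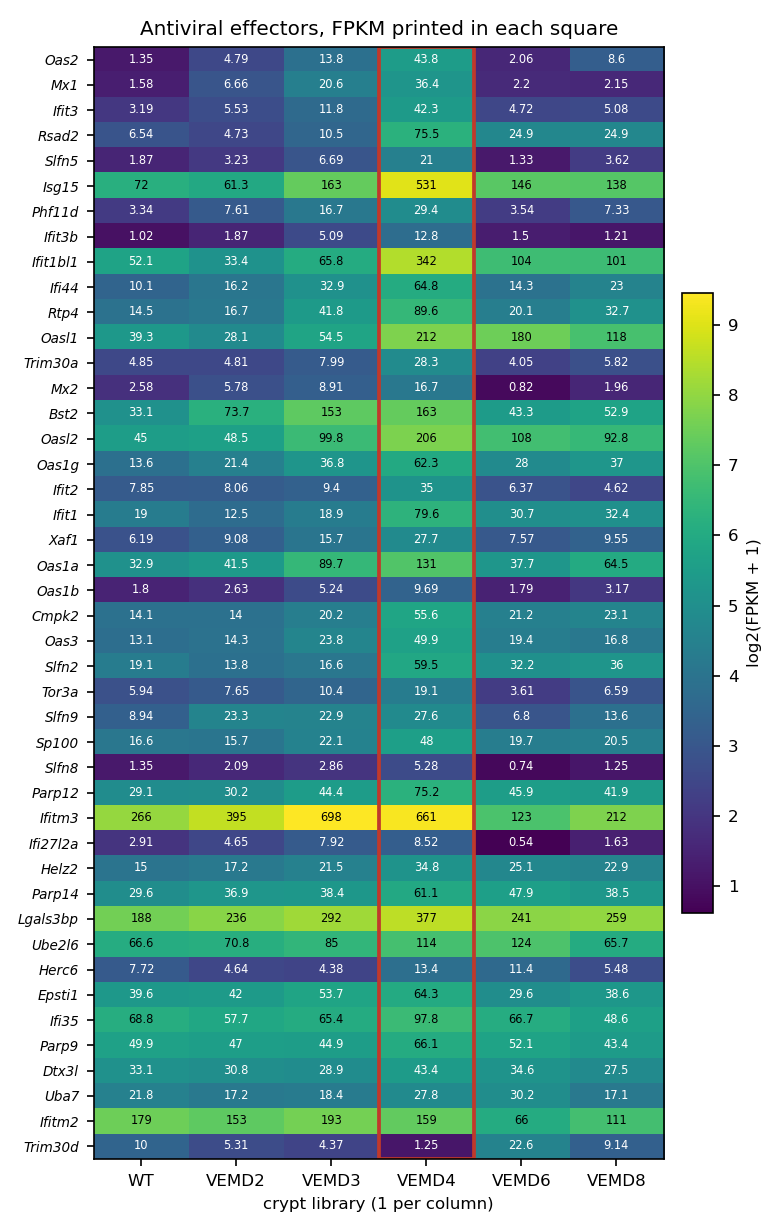
Rows are the 44 tested antiviral effectors in the order of their VEMD4 to WT ratio, columns the 6 crypt libraries with VEMD4 boxed, colour is log2(FPKM + 1), and the FPKM is printed in each square. In VEMD4, 39 rows have their top value, while the last row, Trim30d, is at its lowest there.

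Interferon gamma classically drives GTPases that attack vacuoles of microbes, together with antigen presentation, and these parted from the antiviral effectors. Among 16 tested GTPases 5 were higher and 4 lower, at a median of -0.13 that turned to 0.06 when libraries were scaled to the same sum. The higher members were all guanylate binding proteins, and Gbp8, Gbp9, Gbp4 and Gbp10 were neighbours on chromosome 5. Gbp9 was at 20.4 FPKM in VEMD4 and 2.42 in WT, with 3.6, 9.47, 13.97 and 19.6 in VEMD2, VEMD3, VEMD6 and VEMD8. Gbp4 was at 46.5 FPKM in VEMD4 against 7.98 in WT and Gbp3, from another cluster, at 13.5 against 5.07. The lower members were Igtp, at 103 against 258 FPKM, its relatives Tgtp1 and Tgtp2, at 13.5 against 41.0 and 6.95 against 42.0, and the giant GTPase gene Gvin1. Gvin1 was at 0.8 FPKM in VEMD4 and 70.6 in WT, with 31.0, 1.33, 12.2 and 7.22 in VEMD2, VEMD3, VEMD6 and VEMD8. It lay in a run of 3 lower genes with its copies Gm4070 and Gm1966, and values of such copies are uncertain. Of the 9 tested GTPases with a promoter, 8 held the response element (88.9%), members lower in VEMD4 among them.

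Antigen presentation genes of class II and some of class I were lower. All 8 tested class II genes were lower in VEMD4, at a median of -1.73. H2-Ab1, a class II chain, was at 310.4 FPKM in VEMD4 and 1005 in WT, with 604, 452, 689 and 186 in VEMD2, VEMD3, VEMD6 and VEMD8. Its partner chain gene H2-Aa was at 229 FPKM in VEMD4 against 787 in WT, Cd74, the invariant chain, at 950.2 against 2319 and H2-DMa, of the peptide exchanger, at 17.9 against 90.1. Ciita, the master activator of class II genes, was at 3.33 FPKM in VEMD4 and 14.5 in WT, with 15.7, 8.72, 10.9 and 3.7 in VEMD2, VEMD3, VEMD6 and VEMD8. WT held the top value of H2-Ab1, and VEMD2 that of Ciita, whose lowest value was in VEMD4. Of 21 class I and processing genes none was higher and 6 were lower. These were immunoproteasome and proteasome activator genes, Psmb8 at 168 FPKM in VEMD4 against 394 in WT, Psmb9 at 143 against 345, Psmb10 at 133 against 307 and Psme2 at 253 against 678, and the class I genes H2-T3 and H2-Q1, at 24.1 against 76.6 and 79.6 against 162. The heavy chain genes H2-K1 and H2-D1, chosen after their values were seen, were near WT, at 1174 against 1284 and 1086 against 880.2, while B2m, their light chain, was at 1364 against 2041.

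Of 9 tested alarmin and cytokine genes 5 were higher and none lower. Il33, an alarmin released by damaged epithelium, was at 96.7 FPKM in VEMD4 and 4.89 in WT, with 8.26, 27.5, 30.8 and 26.6 in VEMD2, VEMD3, VEMD6 and VEMD8. Il1rn, which blocks the interleukin 1 receptor, was at 10.1 FPKM in VEMD4 against 0.25 in WT, Tnf at 5.5 against 1.19, the cytokine gene Il18 at 32.7 against 15.6 and Tnfsf9, a costimulator of T cells, at 3.85 against 0.47. Il1rn and Tnfsf9 were under 1 FPKM in WT and passed the filter through knockout libraries. Of 12 tested chemokines of the list 3 were higher and 3 lower. The higher ones were Cxcl10, an interferon target that draws T cells, at 24.6 against 4.53, the scavenger-type chemokine gene Cxcl16 at 27.4 against 6.62 and the neutrophil attractant gene Cxcl1 at 2.96 against 0.12. The 3 lower ones were Ccl25 and Ccl28, chemokine genes of gut epithelium, at 136 against 486 and 9.24 against 29.5, and Ccl6 at 45.5 against 137. Outside the list, Ccl22 was higher at 4.63 against 0.06 and Ccl24 lower at 0.05 against 9.01, both chosen after their values were seen. Complement genes were higher in 4 of 8 cases and lower in none. C3, the central component, was at 5.27 FPKM in VEMD4 against 0.93 in WT, its activator gene Cfb at 75.2 against 33.8, C4b at 5.42 against 1.21 and Cd55, which shields cells from complement, at 35.4 against 9.85. Saa1, an acute phase protein gene, was at 11.4 FPKM in VEMD4 and 0.59 in WT, with 0.31, 0.93, 0.3 and 0.61 in VEMD2, VEMD3, VEMD6 and VEMD8.

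Leukocyte markers were mostly above WT as well. Of 17 tested markers 3 were higher in VEMD4 and none lower, with a median of 0.52, and 15 had their top value there. Their summed level over 30 markers with values was 218 FPKM in WT, 304 in VEMD4, and between 114 and 221 in the other libraries. Tyrobp, an adaptor of myeloid receptors, was at 4.12 FPKM in VEMD4 against 0.62 in WT, the macrophage gene Cd68 at 5.4 against 1.38 and Laptm5, of leukocyte lysosomes, at 6.48 against 2.32. S100a8 and S100a9, of neutrophils, had 2.85 and 3.58 FPKM in VEMD4, while WT listed both at 0. They were under the filter, as were the B cell genes Cd79a and Ms4a1, at 0.09 and 0.18 FPKM in VEMD4. Mcpt1, a protease of mucosal mast cells, was at 41.1 FPKM in VEMD4 and 6.26 in WT, with 13.3, 10.9, 3.56 and 2.35 in VEMD2, VEMD3, VEMD6 and VEMD8. Mcpt2, another, was at 20.8 FPKM in VEMD4 against 2.78 in WT, and both were more than 2-fold above each other library. The pan-leukocyte gene Ptprc was at 2.8 against 1.65, and T cell genes such as Cd3e and Cd8a were at 4.39 against 2.54 and 6.49 against 3.94, these 3 and the Mcpt genes being chosen after their values were seen. The part of leukocytes in the interferon and cytokine results was not tested. Markers of stroma, red blood cells and pancreas summed to 11.4, 1.5 and 6.96 FPKM in VEMD4, against 5.91, 0.18 and 5.9 in WT.

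Mucosal defence genes split, with 7 of 18 higher and 6 lower. Duox2, the epithelial oxidase that makes hydrogen peroxide, was at 106 FPKM in VEMD4 and 18.8 in WT, with 27.6, 38.7, 16.9 and 37.97 in VEMD2, VEMD3, VEMD6 and VEMD8. Its maturation factor gene Duoxa2 was at 145 FPKM in VEMD4 and 23.7 in WT, with 13.6, 32.0, 11.6 and 52.9 in VEMD2, VEMD3, VEMD6 and VEMD8. Both stood more than 2-fold above every other library. Nox1, the crypt NADPH oxidase, was at 41.9 FPKM in VEMD4 against 9.68 in WT, Nos2, the inducible nitric oxide synthase, at 28.1 against 13.2, Retnlb, a bactericidal goblet cell protein gene, at 28.8 against 0.41, and the phospholipase genes Pla2g2a and Pla2g5 at 118 against 56.5 and 29.6 against 12.4. On the lower side Pigr, which carries immunoglobulin A into the lumen, was at 356 FPKM in VEMD4 against 1311 in WT, Reg3a at 10.7 against 33.9 and Reg1 at 10.8 against 32.8. Reg3g, a lectin that kills Gram-positive bacteria, was short of 2-fold at 2908 against 1571 FPKM and was named after its values were seen.

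**Figure D3:**
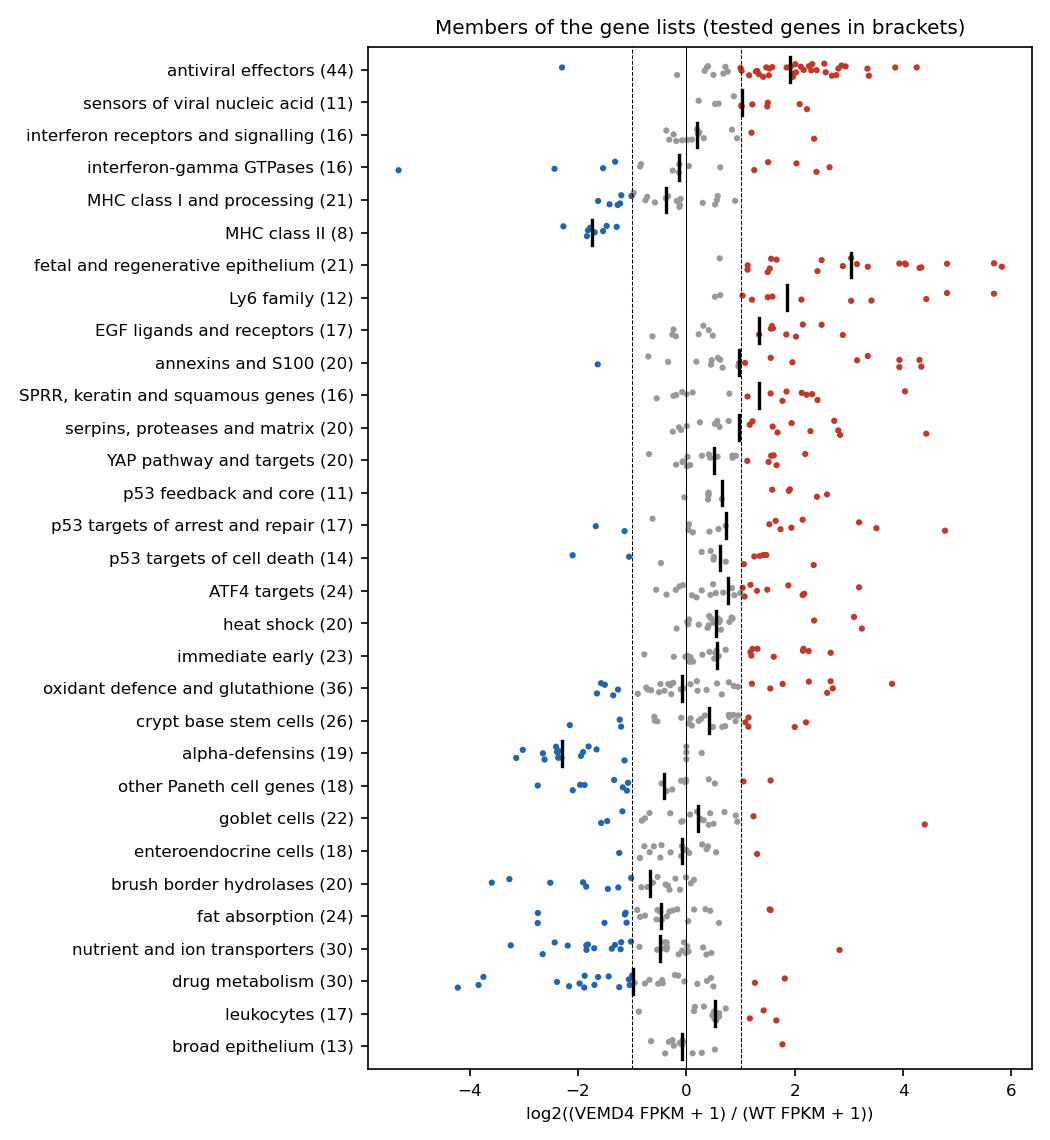
Each point is a tested member of a gene list at its VEMD4 to WT log2 ratio, red when at least 2-fold higher, blue when at least 2-fold lower, with a black bar at the median and the number tested in brackets. Antiviral and fetal lists lie to the right, with medians of 1.92 and 3.04, and class II, alpha-defensin and drug metabolism lists to the left, with medians of -1.73, -2.30 and -0.98.

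Fetal and regenerative epithelial genes held the highest median among the lists that were given one. The lists were written with earlier results of these data known, so this rank and the counts can reflect the choice of members. Of 30 listed genes 21 were tested, 20 of them higher and none lower, with a median of 3.04. Several were listed at 0 or under 1 FPKM in WT and passed the filter through knockouts. Over members with at least 1 FPKM in WT, 13 were higher and the median was 2.04. Clu, clusterin, which marks revival stem cells, was at 77.2 FPKM in VEMD4 and 0.38 in WT, with 4.55, 40.6, 14.9 and 9.47 in VEMD2, VEMD3, VEMD6 and VEMD8. It sat beside Gulo and Adam2 on chromosome 14, which were higher as well, at 57.2 against 2.2 and with a ratio of 2.72. Ly6a, Sca-1, was at 1075 FPKM in VEMD4 and 37.3 in WT, with 368, 789.5, 162 and 275 in VEMD2, VEMD3, VEMD6 and VEMD8. Anxa1, an annexin with anti-inflammatory roles, was at 19.23 FPKM in VEMD4 and 0 in WT, with 0.09, 2.94, 0.43 and 1.89 in VEMD2, VEMD3, VEMD6 and VEMD8. Krt23, a keratin gene of stressed epithelium, was at 47.1 FPKM in VEMD4 and 1.93 in WT, with 3.9, 26.2, 3.45 and 8.06 in VEMD2, VEMD3, VEMD6 and VEMD8. For each of these 4 genes the VEMD4 value was the top of the 6 libraries, with VEMD3 next. Plet1, a surface protein of progenitor cells, was at 28.2 FPKM in VEMD4 and 0.35 in WT, with 0.61, 6.31, 3.94 and 7.96 in VEMD2, VEMD3, VEMD6 and VEMD8.

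The Ly6 genes encode small anchored surface proteins and lie in a cluster on chromosome 15. From Lynx1 to Ly6c2, at chr15:74747856-75112066, 10 consecutive tested genes were higher. They were Lynx1, Ly6d, Ly6k, Gml, Gml2, Ly6m, Ly6e, Ly6a, Ly6c1 and Ly6c2, with ratios from 1.04 to 5.68. Lynx1, Ly6k, Gml, Gml2, Ly6c1 and Ly6c2 were under 1 FPKM in WT and passed the filter through knockout libraries. Gml was at 34.6 FPKM in VEMD4 and 0.21 in WT, with 0.95, 4.63, 35.7 and 45.2 in VEMD2, VEMD3, VEMD6 and VEMD8. Gml2 was at 28.9 FPKM in VEMD4 and 0.13 in WT, with 0.45, 2.1, 37.1 and 44.1 in VEMD2, VEMD3, VEMD6 and VEMD8. Unlike Ly6a, both were higher still in VEMD6 and VEMD8. Ly6m, at 175 FPKM in VEMD4 and 39.5 in WT, with 11.8, 37.9, 50.1 and 41.4 in VEMD2, VEMD3, VEMD6 and VEMD8, was by contrast more than 2-fold above each other library in VEMD4. Ly6g6c, from another locus, was at 10.3 FPKM in VEMD4 and 0.06 in WT, with 0.25, 0.9, 0.42 and 1.1 in VEMD2, VEMD3, VEMD6 and VEMD8. Plaur, the urokinase receptor and a Ly6-type protein, was at 37.1 FPKM in VEMD4 against 0.77 in WT. Ly6a and Ly6c copies resemble each other, and their single values are uncertain.

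EGF receptor ligands and feedback genes were higher in 9 of 17 cases, with none lower and a median of 1.34. Of these, Ereg and Spry4 were under 1 FPKM in WT and passed the filter through knockout libraries. Areg is also in the fetal list. Areg, amphiregulin, was at 99.0 FPKM in VEMD4 and 12.5 in WT, with 39.8, 65.8, 121 and 64.2 in VEMD2, VEMD3, VEMD6 and VEMD8. The ligand genes Ereg and Btc, which lie together with it and Parm1 on chromosome 5, were at 7.58 against 0.52 and 12.8 against 2.1. Areg was higher still in VEMD6. Egfr, their receptor, was at 15.8 FPKM in VEMD4 and 4.56 in WT, with 5.56, 8.64, 4.14 and 4.87 in VEMD2, VEMD3, VEMD6 and VEMD8. Negative regulators of the pathway stood beside the ligands. Dusp6, an ERK phosphatase gene, was at 87.0 FPKM in VEMD4 against 20.6 in WT, Dusp4 at 7.44 against 1.35, Dusp5 at 14.7 against 4.24, Spry4 at 2.07 against 0.21 and Errfi1, which binds and inhibits the receptor, at 35.5 against 11.4. Among YAP pathway genes and targets, 6 of 20 were higher and none lower. Ajuba, a LIM protein that restrains Hippo kinases, was at 9.25 FPKM in VEMD4 against 1.24 in WT, Ccn1, a matrix signalling protein gene, at 3.62 against 0.51, its fellow target F3, tissue factor, at 6.74 against 1.44, and the DNA-binding partner gene Tead4 at 2.7 against 0.25. Ccn1 and Tead4 were under 1 FPKM in WT. Yap1 itself was short of 2-fold at 38.9 against 20.2.

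Among barrier and matrix genes, 9 of 20 tested annexin and S100 genes were higher and 1 lower, 9 of 16 SPRR, keratin and squamous genes were higher and none lower, and 10 of 20 serpin, protease and matrix genes were higher and none lower. Of these, Anxa8, Anxa10, Plat and Serpinb5 were under 1 FPKM in WT and passed the filter through knockout libraries. Some members, such as Anxa10 and Sprr1a, are also in the fetal list, so these counts are not separate from it. Of 26 claudin and junction genes 2 were higher and none lower, with a median of 0.26, beside 7.11% higher and 5.04% lower of all tested genes. S100a6, a calcium-binding protein gene, was at 450.2 FPKM in VEMD4 and 28.5 in WT, with 56.5, 206, 52.6 and 106 in VEMD2, VEMD3, VEMD6 and VEMD8. Its relative S100a11 was at 983 FPKM in VEMD4 and 109.8 in WT, with 279, 641, 272 and 444 in VEMD2, VEMD3, VEMD6 and VEMD8. Annexins were higher in 6 of 12 cases of the Anxa family. Anxa3 was at 33.8 FPKM in VEMD4 against 1.28 in WT, Anxa8 at 9.19 and listed at 0 in WT, Anxa10 at 19.4 against 0.03 and Anxa2, an abundant member, at 938 against 442. The small proline-rich gene Sprr2a3 was at 2644 FPKM in VEMD4 and 603 in WT, with 241, 649, 2941 and 1453 in VEMD2, VEMD3, VEMD6 and VEMD8. Its difference of 2041 FPKM was the largest of any tested gene on the higher side, although VEMD6 was higher, and it and its near copies Sprr2a1 and Sprr2a2 are uncertain singly. Sprr1a, another cornified envelope gene, was at 35.0 FPKM in VEMD4 and 5.72 in WT, with 1.36, 6.56, 6.45 and 2.79 in VEMD2, VEMD3, VEMD6 and VEMD8, with its top in VEMD4. The basement membrane gene Lamb3, a laminin chain, was at 11.6 against 3.19 FPKM, and the integrin genes Itgb6 and Itgb4, of wound edge and hemidesmosome, at 21.5 against 4.86 and 43.6 against 18.8. Plat, tissue plasminogen activator, was at 6.47 FPKM in VEMD4 against 0.07 in WT, the serpin gene Serpinb5 at 8.89 against 0.49, the lysosomal protease gene Ctsl at 36.8 against 4.28, and Cldn4, a tight junction claudin, at 150.3 against 51.0. The simple epithelial keratin genes Krt18 and Krt7 were at 597 against 174 and 163 against 74.1.

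**Figure D4:**
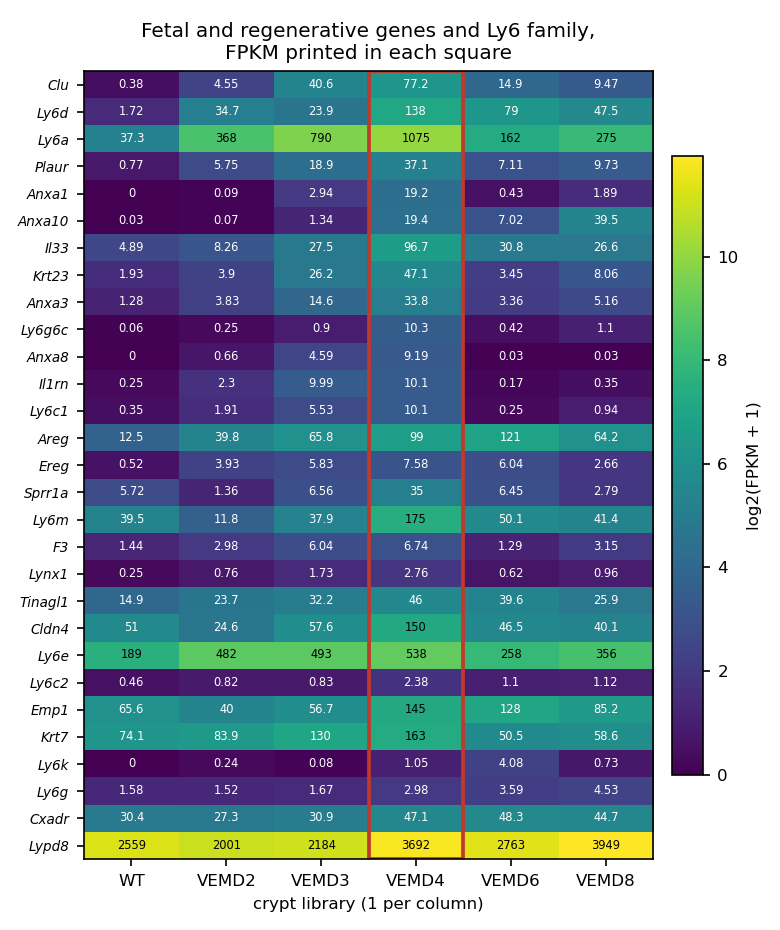
Rows are tested fetal, regenerative and Ly6 family genes in the order of their VEMD4 to WT ratio, columns the 6 crypt libraries with VEMD4 boxed, colour is log2(FPKM + 1) and the FPKM is printed in each square. Clu, Ly6a, Anxa1 and Krt23 have their top values in VEMD4, whereas Anxa10 and Areg are higher in VEMD8 and VEMD6.

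The promoters of the fetal list were searched for the AP-1 letters TGANTCA, which FOS and JUN proteins bind and which read alike on either strand. Of the 14 tested members with a promoter in the table, 7 held a match (50%), against 6.22% of the tested genes, 8.97% of all genes with a promoter and 10.6% of those higher in VEMD4. This list and the YAP list below were written with earlier results of these data known. The shares of matches in both lists reflect that choice and do not bear on the VEMD4 difference. For genes that stood 2-fold above each other library the share was 24.2% of 62, and 29.0% of the same 62 held the interferon-stimulated response element. The AP-1 letters were also in 28.6% of the 35 antiviral effectors with a promoter. The TEAD letters GGAATG were found in 10 of 16 YAP pathway genes (62.5%), against 14% of tested genes and 16.6% of all, and these genes were for the most part near WT. The 200 bases before the start follow for 3 fetal genes with 2 AP-1 matches each, Sprr1a at chr3:92485882-92486081, minus strand, F3 at chr3:121723337-121723536, plus strand and Emp1, a membrane protein gene at 145 against 65.6 FPKM, at chr6:135362731-135362930, plus strand, all GRCm38.p6 and 5′ to 3′, with matches in capitals.
Sprr1a: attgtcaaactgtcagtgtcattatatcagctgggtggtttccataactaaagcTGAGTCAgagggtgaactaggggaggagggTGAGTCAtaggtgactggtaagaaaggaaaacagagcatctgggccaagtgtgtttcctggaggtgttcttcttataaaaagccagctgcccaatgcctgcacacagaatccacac
F3: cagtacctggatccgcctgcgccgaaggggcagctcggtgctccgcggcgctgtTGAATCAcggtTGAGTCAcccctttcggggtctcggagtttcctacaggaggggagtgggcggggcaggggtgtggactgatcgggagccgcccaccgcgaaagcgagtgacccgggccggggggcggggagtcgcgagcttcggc
Emp1: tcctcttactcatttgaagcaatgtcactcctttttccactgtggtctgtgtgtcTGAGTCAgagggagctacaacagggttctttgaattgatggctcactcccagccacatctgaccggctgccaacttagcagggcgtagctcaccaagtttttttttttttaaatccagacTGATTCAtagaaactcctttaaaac
The AP-1 subunit gene Fosl1 was listed at 0 in WT and at 5.34 FPKM in VEMD4, its top value, and Junb was at 91.5 against 38.7. Binding of AP-1 proteins to these promoters was not tested.

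Immediate early and stress genes were partly higher. Of 23 tested immediate early genes 9 were higher and none lower, among them Egr1 at 26.9 against 4.84 FPKM, Dusp1, a phosphatase of p38 and JNK, at 14.8 against 2.53, the nuclear receptor gene Nr4a1 at 4.25 against 0.18 and Atf3 at 40.1 against 17.1. Dusp1 and Atf3 were more than 2-fold above each other library. ATF4 targets, the genes of amino acid shortage and of the integrated stress response, were higher in 9 of 24 cases and lower in none. Ppp1r15a, which ends the stress by reversing eIF2 phosphorylation, was at 13.7 FPKM in VEMD4 and 2.25 in WT, with 2.27, 4.78, 3.41 and 5.35 in VEMD2, VEMD3, VEMD6 and VEMD8. Psat1 and Phgdh, of serine synthesis, were at 41.1 against 10.4 and 45.5 against 17.8, and Slc7a5, a carrier of large amino acids, at 22.9 against 7.47. No gene of the 23 tested for endoplasmic reticulum stress was lower or higher, with Hyou1, a chaperone at 90.1 against 44.7, just short of 2-fold. Of 20 heat shock genes 3 were higher, beside 7.11% of all tested genes. They were Hsph1, a nucleotide exchanger, at 114 FPKM in VEMD4 and 21.5 in WT, with 83.9, 179, 75.8 and 94.5 in VEMD2, VEMD3, VEMD6 and VEMD8, and the near copies Hspa1a and Hspa1b at 23.7 against 1.89 and 43.3 against 3.69, uncertain singly. The top value of Hspa1a was in VEMD8 and those of Hsph1 and Hspa1b in VEMD3.

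Targets of p53 were in part higher. In the feedback and core list 5 of 11 were higher, in the arrest and repair list 8 of 17 with 2 lower, and in the cell death list 6 of 14 with 2 lower. Among the higher ones, Zfp365, Eda2r, Phlda3, Plk2 and Gdf15 were under 1 FPKM in WT and passed the filter through knockout libraries. Cdkn1a, the inhibitor p21, was at 295 FPKM in VEMD4 and 87.6 in WT, with 201, 311, 239.9 and 125 in VEMD2, VEMD3, VEMD6 and VEMD8. Ccng1, a cyclin gene induced by p53, was at 121 FPKM in VEMD4 and 21.98 in WT, with 116, 174, 22.7 and 22.8 in VEMD2, VEMD3, VEMD6 and VEMD8. Mdm2, the ligase that directs p53 to decay, was at 49.1 FPKM in VEMD4 and 15.7 in WT, with 37.4, 62.4, 21.2 and 19.6 in VEMD2, VEMD3, VEMD6 and VEMD8. VEMD4 lay under VEMD3 for both and well above WT. Phlda3, which restrains AKT, was at 33.8 FPKM in VEMD4 and 0.27 in WT, with 21.6, 48.2, 0.36 and 0.12 in VEMD2, VEMD3, VEMD6 and VEMD8. Plk2, a kinase gene, and Gdf15, a stress cytokine gene, were at 16.4 against 0.53 and 13.04 against 0.54. Phlda3 was back at the WT level in VEMD6 and VEMD8. The death genes Bax, Aen, Tnfrsf10b and Pidd1 were at 152 against 58.7, 34.8 against 11.9, 18.0 against 6.06 and 7.35 against 2.5. Known targets on the lower side were Sesn1, a sestrin, at 10.7 against 36.2, Gadd45a at 14.6 against 33.3, the death receptor gene Fas at 7.72 against 17.1 and the ferrireductase gene Steap3 at 1.72 against 10.7. Cyclin-dependent kinase inhibitors went in both directions. Of 9 tested Cdkn genes 2 were higher, Cdkn1a and Cdkn1c, the latter at 4.51 against 1.59, and 4 were lower, Cdkn2b, Cdkn2d, Cdkn2c and Cdkn1b, with ratios of -1.93, -1.28, -1.27 and -1.04. Cell cycle genes were near WT, with 2 of 36 higher, 1 lower and a median of 0.15, beside 7.11% higher and 5.04% lower of all tested genes. DNA repair genes, to be read beside the same shares, had 1 of 29 higher, the mismatch repair gene Msh6 at 43.3 against 14.4.

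Detoxifying genes went in both directions. Glutathione transferases of the alpha class were higher in a run on chromosome 9, with Gsta4 at 108 FPKM in VEMD4 and 15.7 in WT, with 41.1, 65.4, 49.2 and 84.2 in VEMD2, VEMD3, VEMD6 and VEMD8. Gsta1 was at 181 against 36.9, and Gsta3 on chromosome 1 was at 21.7 against 0.63. These copies are uncertain singly. Gpx2, the gut glutathione peroxidase, was at 1613 FPKM in VEMD4 and 550.1 in WT, with 798, 1202, 391 and 712 in VEMD2, VEMD3, VEMD6 and VEMD8. Gclc, of glutathione synthesis, was at 46.8 against 13, and Hmox1, heme oxygenase, at 8.25 against 0.46. Catalase and microsomal or mu class transferases were lower, Cat at 15.5 against 50.8, Mgst1 at 94.6 against 284 and Gstm3 at 23.6 against 61.8. Over the 36 genes, 8 higher and 5 lower, the median was -0.08, or 0.12 with libraries scaled to the same sum.

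Paneth cells secrete alpha-defensins at the crypt base, and their family had the lowest median among 190 symbol families of at least 8 tested genes. Of 25 tested Defa genes 20 were lower and none higher, at a median of -2.30. Defa17, the gene with the highest FPKM in WT, was at 3321 FPKM in VEMD4 and 12801 in WT, with 17679, 8807, 792 and 1357 in VEMD2, VEMD3, VEMD6 and VEMD8. Defa24 was at 1259 FPKM in VEMD4 and 6600.3 in WT, with 8843, 3785, 586 and 596 in VEMD2, VEMD3, VEMD6 and VEMD8. Defa5 was at 416 FPKM in VEMD4 and 2211 in WT, with 3079, 1291, 92.0 and 216 in VEMD2, VEMD3, VEMD6 and VEMD8. VEMD4 lay between VEMD3 and the lower values of VEMD6 and VEMD8. The 3 runs of neighbours on chromosome 8, of 8, 3 and 5 genes, were lower throughout. Defensin genes are near copies, so single values are uncertain, and 3 of the 19 in the list were at 0 in both libraries. Other Paneth genes were lower in 8 of 18 cases and higher in 2. Lyz1, lysozyme, was at 1875 FPKM in VEMD4 and 4233 in WT, with 6844, 4289, 489.9 and 896 in VEMD2, VEMD3, VEMD6 and VEMD8. Mptx2, a pentraxin, was at 305 FPKM in VEMD4 against 1309 in WT, the angiogenin gene Ang4 at 196 against 724 and the lectin gene Itln1 at 872 against 2199.6. Not every Paneth gene followed, since Mmp7, the protease that activates defensins, was at 141 against 151, chosen after its values were seen, and Pla2g2a and Pnliprp2 were higher.

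Stem cell genes went in both directions, with 5 of 26 higher, 3 lower and a median of 0.42. Olfm4, an abundant product of crypt base columnar cells, was at 129 FPKM in VEMD4 and 574 in WT, with 479.9, 276, 154 and 300.4 in VEMD2, VEMD3, VEMD6 and VEMD8, lowest in VEMD4. Smoc2 and Aqp1 were lower with it, at 16 against 38.9 and 16.8 against 39.9. Lgr5, the receptor that marks these cells, was at 1.07 against 2.1 FPKM, a low level in both, and was named after its values were seen. Cd44, a Wnt target, was at 48.6 FPKM in VEMD4 and 11.4 in WT, with 34.6, 56.1, 13.7 and 18.3 in VEMD2, VEMD3, VEMD6 and VEMD8, with Sox9 at 19.7 against 8.74, Ephb3 at 14.9 against 6.17, Prom1 at 52.1 against 23 and Igfbp4 at 25.4 against 4.72. These 5 were higher. Among 18 Wnt genes 5 were higher and none lower, the transcription factor genes Tcf7 and Sp5 at 9.77 against 2.13 and 10.2 against 2.82 besides Cd44, Ephb3 and Sox9.

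Of 22 goblet cell genes 2 were higher and 3 lower, beside 7.11% and 5.04% of all tested genes. Muc2, the main gel-forming mucin, was at 246 FPKM in VEMD4 and 104 in WT, with 226, 150.3, 46.0 and 77.5 in VEMD2, VEMD3, VEMD6 and VEMD8, the top of the 6, and Retnlb was higher as given above. St6galnac1, Tpsg1 and Ccl6 were lower, at 0.5 against 2.4, 3.78 against 12.2 and 45.5 against 137. Enteroendocrine genes were near WT, with Nts, neurotensin, higher at 40.5 against 15.8 and Tac1 lower at 3.79 against 10.3. Their median of -0.09 turned to 0.08 with libraries scaled to the same sum.

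**Figure D5:**
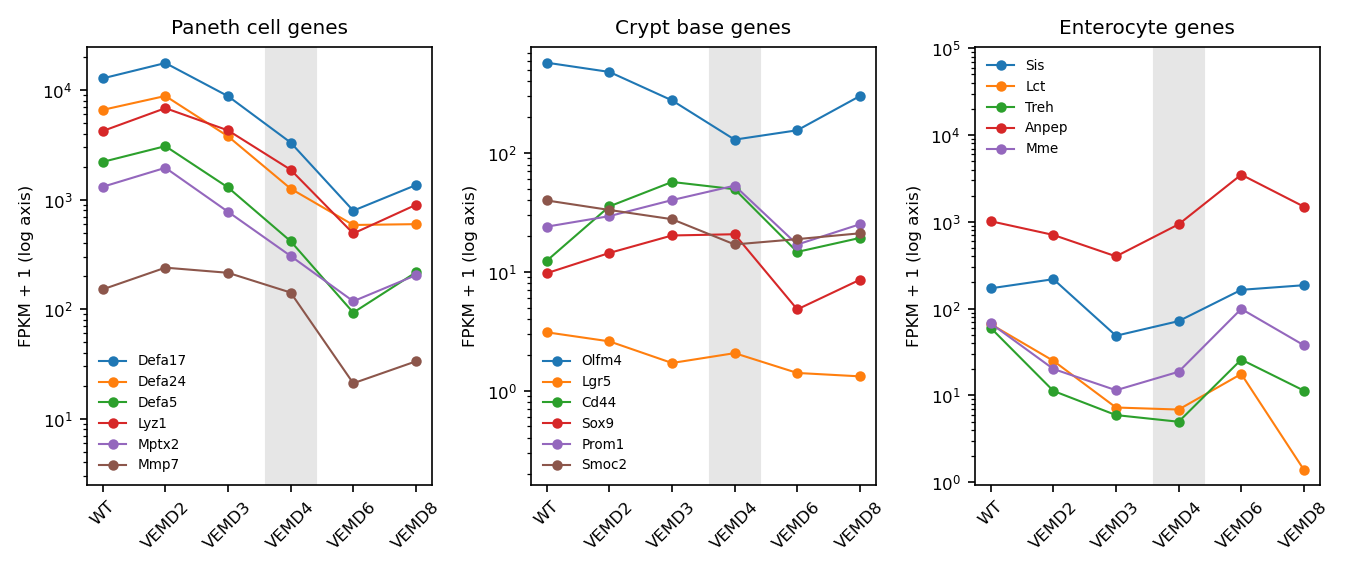
FPKM + 1 on a log axis is plotted for Paneth, crypt base and enterocyte genes in each of the 6 crypt libraries, with VEMD4 shaded and lines joining the values of a gene. Defa17 is at 3321 FPKM in VEMD4 and 12801 in WT, Olfm4 is lowest in VEMD4 at 129, and the hydrolase genes Lct and Treh are at 5.87 and 3.97.

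Enterocyte genes were lower in part. Of 20 brush border hydrolase genes 8 were lower and none higher, at a median of -0.67. Treh, trehalase, was at 3.97 FPKM in VEMD4 and 58.9 in WT, with 10.3, 4.93, 24.9 and 10.4 in VEMD2, VEMD3, VEMD6 and VEMD8. Lct, lactase, was at 5.87 FPKM in VEMD4 and 65.1 in WT, with 24.0, 6.25, 16.7 and 0.39 in VEMD2, VEMD3, VEMD6 and VEMD8. Asah2, the neutral ceramidase, was at 10.5 against 64.5, Enpp7, which digests sphingomyelin, at 20.7 against 80.4 and sucrase-isomaltase, Sis, at 70.8 against 170.4. Anpep, aminopeptidase N, was near WT at 936 against 1015, chosen after its values were seen. Fat absorption genes were lower in 6 of 24 cases and higher in 2. The fatty acid binding protein genes Fabp1 and Fabp2 were at 433 against 1236 and 721 against 1586, Dgat1, of triglyceride synthesis, at 115 against 251, the uptake receptor gene Cd36 at 0.21 against 7.09 and the colipase gene Clps at 19.25 against 135.

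Of 30 tested genes in the list of nutrient and ion transporters, 13 were lower and 1 was higher. Over all 227 tested Slc genes, which include carriers outside that list, 26 were lower and 19 higher. Slc6a20a, a proline carrier, was at 0.86 FPKM in VEMD4 and 16.6 in WT, with 4.8, 1.11, 1.05 and 2.09 in VEMD2, VEMD3, VEMD6 and VEMD8. The fructose carrier gene Slc2a5 was at 5.71 against 22.6, Slc5a12, a lactate carrier, at 1.71 against 13.6, Slc7a8, of amino acid exit, at 11.6 against 56.5, and Car4, the membrane carbonic anhydrase, at 41.1 against 150.5. The higher gene of the list was Slc28a2, a nucleoside carrier, at 148 FPKM in VEMD4 and 19.9 in WT, with 7.88, 35.6, 40.3 and 18.6 in VEMD2, VEMD3, VEMD6 and VEMD8. It lies beside Duox2 on chromosome 2, where 7 consecutive tested genes from Sord to Gatm were higher (chr2:122234839-122611277), and its near copy Slc28a2b was at 27.1 and listed at 0 in WT.

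Drug metabolism had 15 of 30 genes lower and 2 higher, at a median of -0.98. Cyp3a11, a major oxidase of drugs, was at 1.61 FPKM in VEMD4 and 34.0 in WT, with 7.63, 6.92, 21.4 and 1.67 in VEMD2, VEMD3, VEMD6 and VEMD8. Its relative Cyp3a25 was at 0.76 FPKM in VEMD4 against 31.8 in WT. Ugt1a1, which conjugates bilirubin, was at 3.92 FPKM in VEMD4 and 69.3 in WT, with 16.1, 5.5, 47.8 and 13.8 in VEMD2, VEMD3, VEMD6 and VEMD8. Carboxylesterase genes Ces2a, Ces1f and Ces1g were at 5.11 against 26.4, 7.8 against 31.3 and 0.61 against 2.8, and the sulfotransferase genes Sult1b1 and Sult1d1, in a run of 5 lower genes with Ugt2a3 on chromosome 5, at 21.9 against 69.9 and 12.1 against 50.4. Alcohol dehydrogenase genes Adh1, Adh6a and Adh4 were a lower run on chromosome 3, with Adh1 at 4.28 against 47.8. Cyp1a1, a target of the aryl hydrocarbon receptor, was higher at 5.8 against 0.93. Of the transcription factors of enterocytes, Hnf4g was lower at 26.1 FPKM in VEMD4 and 98.1 in WT, with 61.4, 31.5, 91.7 and 79.9 in VEMD2, VEMD3, VEMD6 and VEMD8, with Nr5a2 and Maf at 4.45 against 10.98 and 17.8 against 38.6. Prdm1, which represses adult enterocyte genes before weaning, was higher at 9.45 against 2.66, as was Foxa1 at 19.13 against 6.41. The vitamin D receptor gene Vdr was at 18.7 against 88.3.

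Genes of arginine and citrulline metabolism were higher in 5 of 18 cases and lower in 5. Arg2, the mitochondrial arginase, was at 2.82 FPKM in VEMD4 and 131 in WT, with 23.2, 2.71, 98.0 and 43.5 in VEMD2, VEMD3, VEMD6 and VEMD8, nearly absent in VEMD4 and VEMD3. Oat, Otc and Nags, which serve citrulline synthesis in gut, were at 102 against 524, 17.2 against 79.6 and 7.12 against 22.04, and Aldh18a1 at 35.0 against 75.9. Ddah1, which breaks down methylated arginines that inhibit nitric oxide synthases, was at 28.8 FPKM in VEMD4 and 0.52 in WT, with 10.2, 18.4, 10.6 and 17.1 in VEMD2, VEMD3, VEMD6 and VEMD8. Ass1, of arginine synthesis, was at 25.3 against 9.91. Smox and Srm, of polyamine turnover, were at 37.1 against 8.49 and 59.1 against 28.5. Glycolysis genes were higher in 5 of 20 cases and lower in 1, the enolase gene Eno3 at 2.09 against 9.15. The higher ones were the hexokinase genes Hk2 and Hk1 at 60.5 against 15 and 11.04 against 1.53, Pfkfb3, which drives the pathway, at 13.96 against 3.25, Slc2a1, the glucose carrier GLUT1, at 33.4 against 11.3 and the lactate exporter gene Slc16a3 at 24.6 against 10.4. Selenop, the selenium carrier, was lower at 104 against 646, and Pck1, of gluconeogenesis and chosen after its values were seen, at 1.49 against 24.99.

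Counts for genes of cell death are to be read beside the 7.11% of all tested genes that were higher and the 5.04% lower. The series title names necroptosis, for which 2 of 19 genes were higher and 1 lower. Zbp1, a sensor of Z-form nucleic acid upstream of RIPK3, was at 133 FPKM in VEMD4 and 64.9 in WT, with 56.8, 74.3, 99.0 and 69.3 in VEMD2, VEMD3, VEMD6 and VEMD8. Mlkl, the executioner, was at 41.5 FPKM in VEMD4 and 20.5 in WT, with 28.0, 32.1, 34.3 and 32.6 in VEMD2, VEMD3, VEMD6 and VEMD8. Both had their top value in VEMD4, and the ratio of Mlkl, 0.98, was short of 2-fold. Tnfsf10, the death ligand TRAIL, was lower at 7.34 against 29.9. Of 18 inflammasome and gasdermin genes 6 were lower and 1, Il18, was higher, with a median of 0.03. Pycard, the adaptor ASC, was at 28.7 FPKM in VEMD4 and 185 in WT, with 84.6, 52.3, 53.1 and 60.1 in VEMD2, VEMD3, VEMD6 and VEMD8. Casp1, which it recruits, was at 66.9 against 158 and Nlrp6 at 33.9 against 72.5. The gasdermin genes Gsdmc2, Gsdmc3 and Gsdmc4, neighbours and near copies on chromosome 15, were at 0.03, 0 and 0.06 FPKM in VEMD4 against 51.8, 15.6 and 82.5 in WT. Of 17 apoptosis genes 1 was higher, Bax as given above, and 1 was lower, Casp6 at 25.3 against 107.

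Genes normally silent outside germ cells and embryos were mostly at or near 0 in both libraries, as 7 of 45 listed were tested. Khdc1a, of an oocyte family, was at 69.6 FPKM in VEMD4 and 0.16 in WT, with 4.99, 25.3, 12.5 and 29.9 in VEMD2, VEMD3, VEMD6 and VEMD8. Khdc1c, its neighbour and near copy, was at 15.5 FPKM in VEMD4 and 0.11 in WT, with 0.73, 9.74, 2.74 and 4.16 in VEMD2, VEMD3, VEMD6 and VEMD8. Tex19.1, a guard against retrotransposons in germ cells, was at 15.99 FPKM in VEMD4 and 0 in WT, with 0.2, 4.54, 13.1 and 19.9 in VEMD2, VEMD3, VEMD6 and VEMD8. WT was at or next to 0 for all 3. These genes thus passed the filter only through knockout libraries, so some knockout library had to lie above WT. Higher genes came in other clusters too. On chromosome 14, at chr14:3049285-7568566, 11 consecutive tested genes from Gm2897 to Gm3558, mostly predicted genes, were higher, with ratios from 1.39 to 3.19. Most of the 11 were under 1 FPKM in WT and so passed the filter through knockout libraries, and most were higher in VEMD3 than in VEMD4. Copies in this cluster are uncertain singly. On chromosome 4 a run held Tnfrsf1b, the zinc finger genes Zfp990 and Zfp987, and Gm13212, with Zfp990 at 13.3 FPKM in VEMD4 against 0.04 in WT. Of 269 tested Zfp genes 13 were higher and 2 lower, a share of 4.83% on the higher side beside 7.11% of all genes. Eno1b, an intronless near copy of an enolase gene and so uncertain, had the highest ratio of all tested genes, at 245 FPKM in VEMD4 and 0.62 in WT, with 169, 96.7, 153 and 133 in VEMD2, VEMD3, VEMD6 and VEMD8.

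Against the other libraries VEMD4 stood apart at a few genes. It was at least 2-fold above each of the other 5 crypt libraries at 73 genes (0.672%) and at least 2-fold below each at 6 (0.0552%). Among the 73 were Isg15, Irf7, Usp18, Rsad2 and 5 Ifit genes. Another was Bmp2, a morphogen gene, at 29.1 FPKM in VEMD4 and 3.49 in WT, with 1.14, 1.78, 6.93 and 4.78 in VEMD2, VEMD3, VEMD6 and VEMD8. Tat, tyrosine aminotransferase, was at 8.66 FPKM in VEMD4 and 0.24 in WT, with 0.15, 0.5, 0.52 and 1.17 in VEMD2, VEMD3, VEMD6 and VEMD8. Nt5e, the enzyme CD73 of the villus tip, was at 24.5 FPKM in VEMD4 and 2.49 in WT, with 1.46, 9.34, 3.17 and 2.02 in VEMD2, VEMD3, VEMD6 and VEMD8. Ceacam1, an abundant adhesion protein gene, was at 872 FPKM in VEMD4 and 259 in WT, with 318, 407, 354 and 378 in VEMD2, VEMD3, VEMD6 and VEMD8. Clca4a, a secreted regulator of chloride channels, was at 429 FPKM in VEMD4 and 139 in WT, with 21.4, 62.1, 81.9 and 64.2 in VEMD2, VEMD3, VEMD6 and VEMD8. Cd274, the immune checkpoint ligand PD-L1, was at 13.2 FPKM in VEMD4 and 4.96 in WT, with 2.71, 2.49, 3.59 and 0.86 in VEMD2, VEMD3, VEMD6 and VEMD8. The 6 genes below all others were Defa38, Trim30d, Trim12a, Insl3, Hpgd and Rbp7. Hpgd, which degrades prostaglandins, was at 2.55 FPKM in VEMD4 and 34.5 in WT, with 10.8, 6.95, 15.9 and 12.1 in VEMD2, VEMD3, VEMD6 and VEMD8. Rbp7, a retinoid carrier, was at 1.07 FPKM in VEMD4 and 40.8 in WT, with 14.4, 5.79, 4.24 and 3.95 in VEMD2, VEMD3, VEMD6 and VEMD8. Genes of these sentences that are in no list or run were chosen after their values were seen.

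By direct comparison the fewest genes parted VEMD4 from VEMD3, with 280 genes at least 2-fold above it and 60 below. Against VEMD2 the counts were 495 and 221, against VEMD8 533 and 252, and against VEMD6 1045 and 529. These counts were not rescaled. VEMD6 had the lowest median log2 ratio to WT of the knockout libraries, -0.23 beside 0.03 for VEMD4, so the counts against it depend on the scaling. Of the 772 genes higher than WT, 452 had their top value of the 6 libraries in VEMD4, and of the 547 lower genes 250 had their lowest. By symbol family, the largest shares of higher members were in Ly (8 of 11), Gbp (5 of 8) and Tnfrsf (7 of 12), the receptors of TNF-type ligands, where Tnfrsf23, Tnfrsf12a and Tnfrsf11b had ratios of 2.91, 2.58 and 2.28. The largest shares of lower members, after Defa, were in Ces (4 of 8), Cdkn, Ugt (4 of 9), Ccl (4 of 9) and Aldh (6 of 14). On the X chromosome 8 of 300 genes were higher (2.67%) and 15 lower (5.0%), a lower share on the higher side than on any of the autosomes.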

How the data were processed

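RNA of 6 crypt libraries, 1 per group, was measured by sequencing, and VEMD4 was compared with WT. Per the file headers the deposited values are FPKM, which the authors had normalised before deposit, and they carry 2 decimals. The submitters' processing notes name HISAT2, featureCounts, edgeR and the builds GRCm38 and mm10, with no versions, and whether reads were counted by strand is not given in the sources used here, so antisense partners cannot be told apart. Symbols and coordinates were taken by gene identifier from RefSeq (GRCm38.p6) for 16916 of 16958 genes with values and 10847 of 10862 tested ones. Ratios and motif searches were computed in Python 3.11.15 with pandas 2.3.3. The ratio and the 2-fold call, but not the motif search, were checked on simulated FPKM built with the same formula.

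A gene was tested at a mean of at least 1 FPKM over the 6 libraries. Alternatives were other pseudocounts, filters, scalings and a 4-fold threshold. Members and the 68 gene lists were chosen with earlier results of these data known. Named are Setdb1, the 25 highest and 25 lowest ratios where the mean reached 5 FPKM, members of lists past 2-fold or among the 6 furthest from WT, and members of runs of at least 3 neighbours. Not all are printed, and some others, said so in place, were chosen after their values were seen. The stem cell and repeat tables were not used here.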

Additional observations from a re-analysis of the deposited data

How the results depend on the processing

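With a pseudocount of 5 FPKM, 383 genes were at least 2-fold higher and 304 lower, and at 4-fold 204 and 115, so these counts depend on both choices. Under the other 7 alternatives each of these 2 counts stayed within 1.5 times the reported one, at 523 to 1141 higher and 402 to 693 lower. Scaled to the same sum of FPKM, 1141 were higher and 450 lower, 71.7% against 58.5%, as the median ratio moved to 0.21. Among genes of at least 1 FPKM in WT the split was 579 and 575. No list median past 2-fold changed sign under any alternative run, while 6 smaller ones did when libraries were scaled to the same sum. Genes 2-fold above every other library numbered 44 with a pseudocount of 5 FPKM and 8 at 4-fold, and stayed within 1.5 times the reported 73 under the other 7, at 51 to 89. Those below every other numbered 2 with a pseudocount of 5 FPKM, 1 at 4-fold and 12 with a pseudocount of 0.1 FPKM, and 5 to 8 under the other 6. No paired analysis was possible because there was a single library per group, and for the same reason no library could be left out.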

Other observations

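Of 14 tested villus tip genes 6 were higher and 2 lower, with a median of -0.13. Nt5e, Slc28a2 and Egfr are given above, as is Gsdmc4 on the lower side. Tmigd1, an adhesion protein gene, was at 29.7 FPKM in VEMD4 against 3.99 in WT, Ada, adenosine deaminase, at 622 against 291, Ifrd1, a transcriptional regulator gene, at 142 against 51.2, and Pmp22, a membrane protein gene, at 11.4 against 116. Of 25 genes for fatty acid oxidation and ketogenesis 4 were higher and 2 lower. This count and those that follow are to be read beside 7.11% higher and 5.04% lower of all tested genes. Acadl, a long-chain dehydrogenase, was at 245 FPKM in VEMD4 against 61.6 in WT and Vnn1, pantetheinase, at 127 against 26.2, whereas Hadh, another enzyme of the same spiral, was at 92.7 against 253 and Ppara, the nuclear receptor that induces many of them, at 1.8 against 7.11. Of 18 genes for handling metals and heme 2 were higher and 3 lower, among which Slc39a5, a zinc carrier, was at 16.1 FPKM in VEMD4 against 97.5 in WT and Mt2, a metallothionein, at 527 against 229. Of 8 genes of bile acid handling 2 were higher and 1 lower. Slc10a2, the ileal uptake carrier, was higher at 4.67 against 0.65 and the exporter subunit gene Slc51a lower at 32.7 against 74.5.

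Ribosomal protein genes and subunits of respiratory complex I, chosen after their values were seen, lay slightly below WT, with none of them past 2-fold in either direction. The median log2 ratio was -0.24 over 49 Rpl genes and -0.25 over 39 Rps genes, and -0.04 and -0.05 with libraries scaled to the same sum of FPKM. Over 13 Ndufa genes it was -0.69, or -0.50 so scaled, and over 10 Ndufb genes -0.79, or -0.60.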
